A study of Mus musculus with 564 samples.

Results

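In mouse bone marrow-derived macrophages (BMDMs), 887 of 59190 cis-regulatory elements (CREs) carried more histone H3 lysine 27 acetylation (H3K27ac) after IL-4 and less after LPS than in unstimulated cells. They were chosen by their values in the DMSO libraries. The difference from the unstimulated control (UT) was taken as log2 of the mean of both DMSO libraries plus 5, and a CRE was selected on a gain of at least 0.8 with IL-4 and a fall of at least 1 log2 unit with LPS at the same time. Both thresholds were passed by 603 CREs at 2 h and by 588 at 4 h, with 304 passing at both times, 299 at 2 h alone and 284 at 4 h alone. A further 6911 CREs passed only the IL-4 threshold and 11079 only the LPS threshold, and 877 showed the mirror pattern of gain with LPS and loss with IL-4.

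The series held 564 H3K27ac ChIP-seq libraries of wild type BMDMs grown from young adult male C57/BL6 mice. Each culture was held for 1 h in DMSO, the solvent, or in a CKI (a kinase inhibitor from clinical use or trials, 58 in all) at its EC50 for the intended target, and was then left unstimulated or given 10 ng/mL of LPS or of IL-4 for 30 min, 1 h, 2 h or 4 h. The UT libraries are titled 0 h, while their treatment labels speak of 4 h without stimulus, and 36 libraries carry a suffix b that the labels do not explain. DMSO had 2 libraries in each of its 9 groups (18 in all), and the CKIs had 546, mostly 1 library per inhibitor, stimulus and time. Values were the deposited normalised read counts per CRE, rounded by the authors to whole numbers.

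H3K27ac marks active enhancers and promoters, and its level at a CRE follows the activity of the transcription factors and coactivators bound there. IL-4 signals through its receptor and JAK kinases to STAT6, the transcription factor that drives the alternative, tissue-repair programme of macrophages. LPS signals through TLR4 to NF-kB, AP-1 and IRF factors and drives the inflammatory programme, and genes of the alternative programme are known to be repressed by inflammatory stimuli.

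Among marker genes with a promoter CRE, those of macrophages held the highest levels in the UT cells. Promoter CREs were present for 6 of 10 macrophage marker genes and held 226 to 992 normalised reads there, against a median of 149.5 over all 10763 promoter CREs. Promoter CREs of 2 of 6 neutrophil, 1 of 4 dendritic cell and 1 of 4 fibroblast marker genes held 3.5 to 12.5. The only one of 8 lymphocyte marker genes with a promoter CRE held 70. The macrophage genes Csf1r, Spi1, Adgre1 and Cd68 had none. Library contrast, the ratio of signal in strong to weak CREs, was 53.0 to 134 in the DMSO libraries and 3.34 to 67.2 in the inhibitor libraries, so the log2 differences of the 2 collections are not on one scale. With the 100 inhibitor libraries of a contrast under 10 left out, a choice made after seeing the data, LPS was lower than UT at 556 of the 887 CREs at 30 min in place of 484 and at 655 in place of 564 at 1 h. In bulk chromatin, fewer cells with the mark and less mark per cell cannot be told apart, and CREs are named here by the nearest protein-coding transcription start, which is a name and not a shown target.

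The CREs lay away from promoters. Of the 887, 57 (6.43%) lay within 1000 bp of a transcription start, compared with 18.2% of all CREs and 3.19% of the mirror set. Another 404 (45.5%) were intronic, 399 (45.0%) intergenic and 27 exonic. The median distance to the nearest start was 25298 bp, against 15400.5 bp for all CREs, and 31.3% were over 50 kb away, against 22.2%.

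Sequences are shown for 5 CREs that the values below turn on, all among those with the largest differences between IL-4 and LPS and in sequence that is mostly present once in the genome. Each is the central 300 bases of the CRE on the plus strand of mm10 (RefSeq, GRCm38.p6), with TTC and GAA 4 bases apart, the spacing bound by STAT6, in capitals. The first Enthd1 window held 2 such matches, the Vrk1, Msx3 and March10 windows held 1 each, and the second Enthd1 window held none.
Enthd1 intron, chr15:80497759-80498058: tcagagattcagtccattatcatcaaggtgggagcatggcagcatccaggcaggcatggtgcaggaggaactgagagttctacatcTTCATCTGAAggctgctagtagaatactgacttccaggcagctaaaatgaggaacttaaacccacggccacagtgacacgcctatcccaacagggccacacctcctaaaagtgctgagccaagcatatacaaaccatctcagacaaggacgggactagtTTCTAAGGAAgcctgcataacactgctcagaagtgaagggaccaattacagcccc
Vrk1 region, chr12:105967041-105967340: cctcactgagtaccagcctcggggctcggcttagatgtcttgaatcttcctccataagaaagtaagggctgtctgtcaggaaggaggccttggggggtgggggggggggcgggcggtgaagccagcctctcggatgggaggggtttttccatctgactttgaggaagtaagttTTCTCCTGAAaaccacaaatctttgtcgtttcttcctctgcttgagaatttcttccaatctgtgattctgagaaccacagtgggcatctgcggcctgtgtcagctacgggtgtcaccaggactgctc
second Enthd1 intron element, chr15:80457758-80458057: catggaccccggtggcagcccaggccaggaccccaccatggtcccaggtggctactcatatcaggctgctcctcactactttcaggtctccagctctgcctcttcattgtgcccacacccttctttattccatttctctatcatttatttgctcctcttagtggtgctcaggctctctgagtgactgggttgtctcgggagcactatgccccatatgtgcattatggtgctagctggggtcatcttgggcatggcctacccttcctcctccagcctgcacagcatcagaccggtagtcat
Msx3 region, chr7:140051474-140051773: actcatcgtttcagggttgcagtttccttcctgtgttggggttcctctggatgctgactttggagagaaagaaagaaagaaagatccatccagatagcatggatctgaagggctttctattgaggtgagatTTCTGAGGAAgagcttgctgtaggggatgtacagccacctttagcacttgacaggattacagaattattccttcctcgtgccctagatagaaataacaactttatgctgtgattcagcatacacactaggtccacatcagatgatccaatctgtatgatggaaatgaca
March10 intron, chr11:105439522-105439821: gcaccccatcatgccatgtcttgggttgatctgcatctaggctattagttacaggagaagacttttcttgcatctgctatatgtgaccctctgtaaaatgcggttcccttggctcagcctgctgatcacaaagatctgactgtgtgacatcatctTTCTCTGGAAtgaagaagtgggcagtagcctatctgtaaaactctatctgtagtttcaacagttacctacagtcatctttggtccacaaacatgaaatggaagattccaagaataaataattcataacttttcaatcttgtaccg

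Levels at the 887 CREs parted within 30 min and stayed apart. The median over the CREs was 68 and 63 normalised reads in the UT libraries, and 166 and 160 after 30 min of IL-4. It was 162 and 179 at 1 h, 174 and 184 at 2 h, and 182 and 175 at 4 h of IL-4. With LPS it was 30 and 34 at 30 min, 27 and 26 at 1 h, 22 and 22 at 2 h, and 25 and 21 at 4 h. Every IL-4 library was thus above both UT libraries and every LPS library below them, while the median over all CREs stayed between 33 and 45 in the 18 libraries. These separations at 2 h and 4 h are what the CREs were selected on and are given as a description. The same holds for the DMSO values of single CREs at 2 h and 4 h below.

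**Figure D1:**
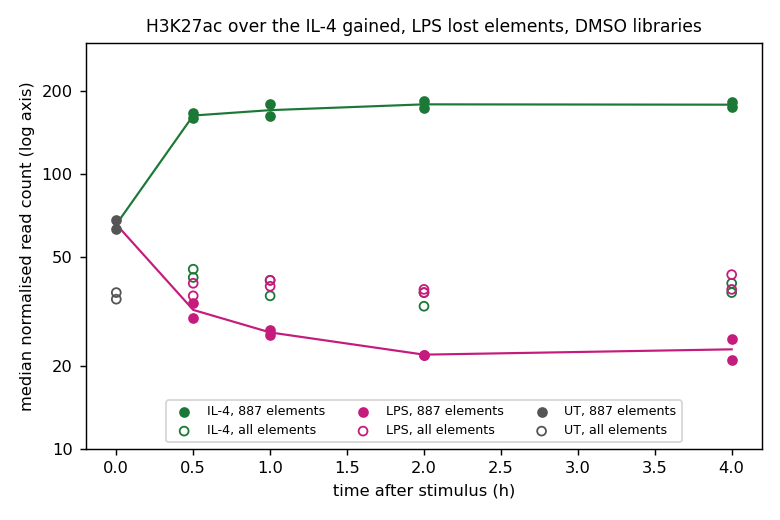
Median normalised read count (log axis) in each DMSO library against time after stimulus in hours, for the 887 CREs (filled points) and all CREs (open points). Lines join the means of the 2 libraries, and the 887 CREs sat at 160 to 184 with IL-4 and at 21 to 34 with LPS.

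In DMSO the median gain was similar at 30 min and 4 h, and the median loss was smaller at 30 min than at 2 h. The median gain over UT was 1.066 on the log2 scale after 30 min of IL-4 and 1.171 at 4 h. The median loss went from -0.874 after 30 min of LPS to -1.092 at 1 h, -1.292 at 2 h and -1.243 at 4 h. At 30 min, 206 of the CREs already passed both thresholds, and at 1 h 336 did. The highest IL-4 value fell at 30 min for 189 CREs, at 1 h for 92, at 2 h for 225 and at 4 h for 381, and the lowest LPS value fell at 30 min for 90, at 1 h for 130, at 2 h for 359 and at 4 h for 308. All these differences share the 2 UT libraries. The values at 2 h and 4 h were used in the selection and those at 30 min and 1 h were not. The rule thus favours larger changes at 2 h and 4 h, and these values are a description and no measure of speed.

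The thresholds cut through a continuous range. Just inside the IL-4 threshold at 2 h were CREs near Dhrs9, Rcn3 and Dcakd, each with a gain of 0.80, and just outside were CREs near Cmip, Tmem144 and Ccnd1, also at 0.80 when rounded. At the LPS threshold at 2 h, CREs near Gli1, Abcc3 and Etv1 were exactly at -1.0, and those near Rgs1, Dnttip2 and Pan3 were just outside at -0.9952, -0.9921 and -0.9885. At 4 h the CREs just inside were near Irf2bp2, Tanc2, Snx29, Il1rl2, Cd24a and Man1a. Those just outside at 4 h were near Fam234b, Lrp6, Plxna1, Ppp1r26, Ppm1h and Ints9. Just outside refers to the time named and does not always mean left out of the set. The CREs near Tmem144, Rgs1 and Pan3 passed both thresholds at 4 h and were selected. Those near Lrp6, Ppp1r26 and Ppm1h passed both at 2 h and were selected as well. The CREs near Cmip, Ccnd1, Dnttip2, Fam234b, Plxna1 and Ints9 passed both at neither time.

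The DMSO libraries at 30 min and 1 h were not used to choose the CREs. At 30 min, 821 of the 886 CREs tested were higher with IL-4 than with LPS by limma with a mean-variance trend (Benjamini-Hochberg adjusted p of at most 0.05 and a log2 difference of at least 0.5), against 28.6% of all 50587 CREs tested, and 3 were lower. At 1 h, 865 of 886 were higher, against 27.1% of all, and none was lower. The median difference over the CREs was 1.99 at 30 min and 2.31 at 1 h, against a median of 0.119 over all CREs at 30 min. The 3 CREs that were higher with LPS at 30 min included one near Rcc2, at -1.28 ± 0.157 (SE).

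Arg1, which encodes the arginase that is a hallmark of IL-4-treated mouse macrophages, had a CRE 3.53 kb from its start (chr10:24929501-24932528, intergenic). It held 303 and 316 normalised reads in UT, 1096 and 1127 after 30 min of IL-4, 1115 and 1117 at 1 h, 1129 and 1175 at 2 h, and 1077 and 910 at 4 h. With LPS it held 140 and 108, 112 and 114, 100 and 116, and 162 and 105 at the same times. The 3 conditions did not overlap at any time, but the values at 2 h and 4 h were used in the selection. IL-4 exceeded LPS at 30 min by 3.12 ± 0.141 log2 units (SE, limma adjusted p 1.58e-21, n = 2 libraries per group). In the inhibitor libraries at 4 h the lowest, median and highest values were 323, 599 and 861 with IL-4 and 42, 147 and 243 with LPS, beside 166, 263 and 403 in UT.

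The promoter CRE of Mgl2 (chr11:70128439-70130892), a C-type lectin of alternatively activated macrophages, held 95 and 78 in UT. With IL-4 it held 564 and 524 at 30 min, 487 and 499 at 1 h, 430 and 486 at 2 h, and 480 and 461 at 4 h. With LPS it held 33 and 36, 31 and 23, 16 and 15, and 11 and 21. Its highest IL-4 values were thus the earliest and its LPS values fell over time, with no overlap with UT on either side. The IL-4 minus LPS difference was 3.80 ± 0.202 (SE) at 30 min in DMSO (limma adjusted p 2.39e-19).

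At CREs near a pair of regulator genes the highest IL-4 values came at 4 h. The CRE 34.4 kb from Irf4 (intergenic), a transcription factor needed for the alternative programme, held 41 and 49 in UT. It held 310 and 325 at 30 min of IL-4, 402 and 445 at 1 h, 464 and 483 at 2 h, and 588 and 533 at 4 h, and with LPS 23 and 19, 26 and 26, 20 and 14, and 16 and 13. IL-4 values rose at each time and LPS values stayed below both UT values throughout, and the inhibitor libraries ranged from 222 to 605 at 4 h with IL-4 and from 7 to 135 with LPS. Klf4, a transcription factor that acts with STAT6, was nearest to a CRE 273 kb away (chr4:55804666-55806259, intergenic). That CRE held 67 and 77 in UT, 320 and 294 after 30 min of IL-4, 495 and 442 after 4 h of IL-4, and 8 and 10 after 4 h of LPS.

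At other CREs the LPS loss was the larger change. The CRE in an intron of Csad (chr15:102191747-102194007), which encodes an enzyme of taurine synthesis, held 420 and 407 in UT and 13 and 40 after 30 min of LPS. It stayed at 27 and 33, 14 and 39, and 43 and 31 at 1 h, 2 h and 4 h of LPS, and held 531 and 470, 534 and 548, 599 and 749, and 765 and 739 with IL-4. Every LPS library was far below both UT libraries. In the inhibitor libraries, averaged over compounds, LPS was lower than UT at 4 h by -2.50 ± 0.074 log2 units (SE, limma adjusted p 4.04e-132), the deepest fall among the 887. The promoter CRE of Ptgs1 (chr2:36229666-36231938), which encodes cyclooxygenase 1, held 161 and 141 in UT and 12 and 12 after 1 h of LPS. It held 186 and 214 after 30 min of IL-4 and 325 and 349 after 4 h, so the IL-4 values built up over the time course while the LPS values were already near their lowest at 1 h.

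**Figure D2:**
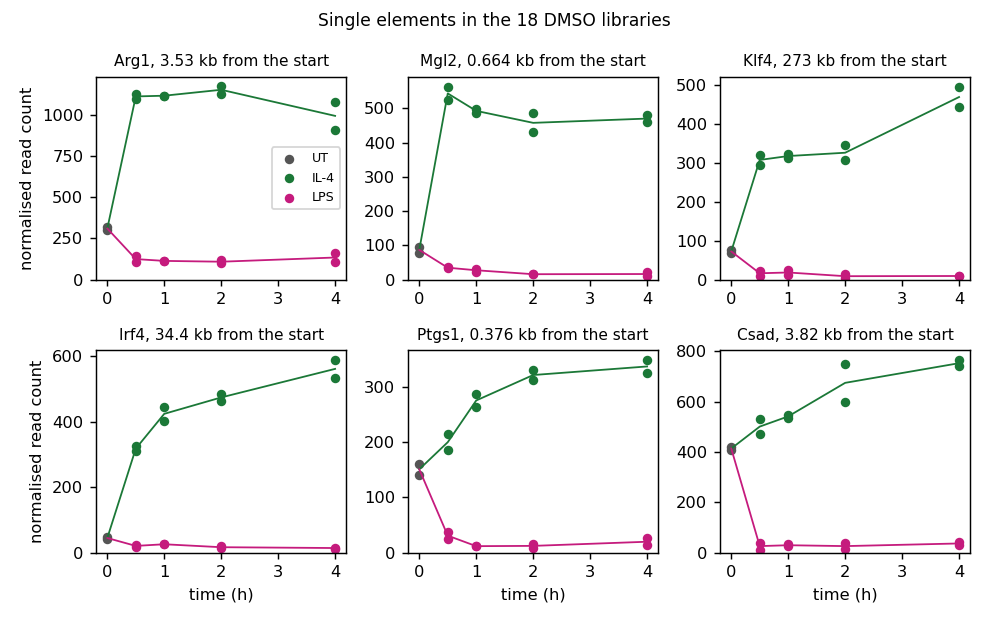
Normalised read count in each of the 18 DMSO libraries against time in hours for 6 CREs, named by nearest gene and distance to its start (points are libraries, lines join the means of 2 libraries, linear axes from 0). Arg1 and Mgl2 reached their IL-4 level by 30 min, Irf4 and Csad rose up to 4 h, and LPS values lay below UT in every panel.

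The 546 inhibitor libraries, none of which entered the selection, gave the same direction. In these fits the compounds stand in for replicates of the stimulus, so each difference is an average over compounds. Their errors and p-values are not those of replicates of 1 condition. With the mean of 2 h and 4 h taken, 883 of the 887 CREs were higher with IL-4 than with LPS (limma, adjusted p of at most 0.05 and log2 difference of at least 0.5), against 22.5% of the 59167 CREs tested. All 887 had a difference above 0, compared with 47.6% of all CREs. The median difference was 1.72, and 80% of the CREs fell between 1.02 and 2.56. By time, 818 were higher at 30 min (22.1% of all CREs), 862 at 1 h (22.4%), 877 at 2 h (23.2%) and 869 at 4 h (22.5%), with medians of 1.39, 1.62, 1.78 and 1.69. Together with both DMSO comparisons, 777 CREs passed in all 6 single-time tests. Within the 6 runs of compounds, taken one at a time, 850 to 879 passed for the mean of 2 h and 4 h, with medians of 1.54 to 1.90, against 19.8% to 28.9% of all CREs.

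**Figure D3:**
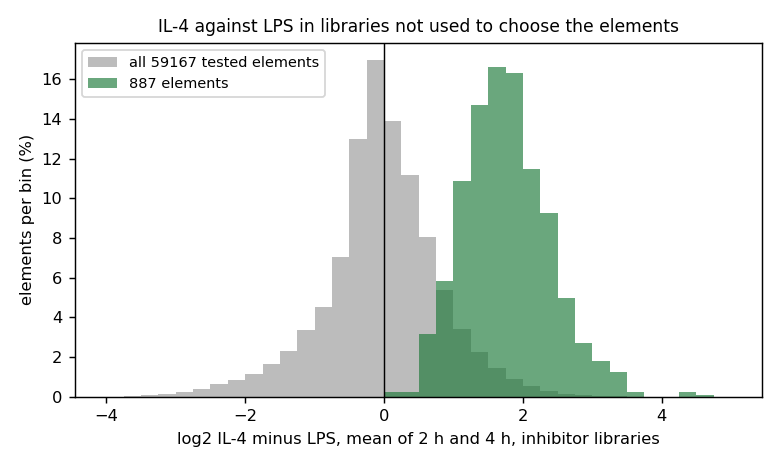
Share of CREs in each bin of 0.25 log2 units (vertical axis, %) by the IL-4 minus LPS difference in the inhibitor libraries, mean of 2 h and 4 h, for the 887 CREs (green) and all 59167 tested (grey). All 887 lie above 0, with a median of 1.72.

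The 4 CREs that did not pass in that mean lay near Ripor2, Msmb, Dad1 and Bcor and were picked out after their values were seen. The one near Msmb had a difference of 0.03 and 86.3% of its 51-base words occurred elsewhere in the genome, and the one in Bcor, which encodes a corepressor, had 0.38.

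Against UT, each side was found separately in the inhibitor libraries. IL-4 was higher than UT at 653 of the 887 CREs at 30 min (12.1% of all CREs), 739 at 1 h (11.6%), 743 at 2 h (9.7%) and 710 at 4 h (9.36%), with medians of 0.78, 0.90, 0.91 and 0.84. LPS was lower than UT at 484 at 30 min (18.9%), 564 at 1 h (19.2%), 636 at 2 h (23.0%) and 673 at 4 h (20.8%), with medians of -0.56, -0.64, -0.76 and -0.78. In these libraries the median IL-4 gain was therefore near its full size at 30 min. The median LPS loss grew up to 2 h and changed little from 2 h to 4 h. Opposite calls among all CREs were 11.3% for lower with IL-4 and 21.1% for higher with LPS at 4 h, and the only member called higher with LPS at 4 h was a CRE 182 kb from the clotting factor gene F9, at 0.62 ± 0.11 (SE).

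Both sides passed together, IL-4 higher and LPS lower than UT, at 517 CREs at 2 h (1.53% of all CREs) and 528 at 4 h (1.55%). Over both times this made 636 of the 887, out of 1237 CREs in the whole series with that pair of calls. At 4 h, 182 passed on the IL-4 side alone, 145 on the LPS side alone and 32 on neither. March10, which encodes a RING-type ubiquitin ligase, had an intronic CRE (chr11:105438853-105440491) of the IL-4-only kind. It held 16 and 10 in UT, 398 and 351 after 4 h of IL-4, and 6 and 0 after 4 h of LPS. In the inhibitor libraries LPS minus UT was -0.16 ± 0.109 (SE, limma adjusted p 0.181), beside 2.97 ± 0.11 for IL-4 minus UT.

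Some CREs first rose with LPS. In the inhibitor libraries 14 were higher than UT after 30 min of LPS (20.6% of all CREs), and at all 14 the LPS difference was below 0 by 4 h. Near Sqor (-0.06 ± 0.118, SE, limma adjusted p 0.673) and Gja1 (-0.12 ± 0.079, adjusted p 0.158) that 4 h difference was not told apart from 0. These 14 were singled out after their values were seen. They lay near Il1rl2 (the IL-36 receptor, at its promoter), Rcsd1, Gja1, Ado, Plau, Fam83f, Sqor, Sema6d, Rcc2, Rlbp1 and Zfp703, and 3 lay near Reep3. The CRE in an intron of Sema6d (chr2:124573160-124574761), which encodes a semaphorin, held 47 and 47 in UT, 119 and 168 after 30 min of LPS, 89 and 71 at 1 h, 35 and 26 at 2 h and 19 and 21 at 4 h. Its IL-4 values were 176 and 172 at 30 min and 216 and 198 at 4 h. Near Plau, the urokinase gene, the CRE 3.15 kb away held 155 and 156 in UT, 421 and 448 after 30 min of LPS and 47 and 58 at 2 h. Both CREs thus stood above UT at 30 min with either stimulus and parted by 2 h.

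The 3 largest IL-4 minus LPS differences in the inhibitor libraries were at CREs near genes of the pancreatic-type ribonuclease family. The top CRE (chr14:44007313-44010735), 6.75 kb from Ang6, an angiogenin gene, had a difference of 4.69 ± 0.102 (SE). It held 50 and 87 in UT, 1181 and 962 after 4 h of IL-4, and 11 and 2 after 4 h of LPS. Next came 2 CREs near Ang5, at 4.36 and 4.35. The 10 largest also included CREs of this family near Ang6 (3.50 and 3.38) and Ear14 (3.41), an eosinophil-associated ribonuclease gene. Near-identical copies of these genes share sequence, and 68.6% of the 51-base words in the top CRE occurred elsewhere in the genome, so reads there may belong to another copy and its values are uncertain. Of all 887, 63 CREs had over 10% of such repeated words, 15 had over 50% and 456 had none, and among the 824 with 10% or less, 822 passed in the same mean.

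The rest of the 10 largest were in sequence that is mostly present once. Near Enthd1, whose product carries an ENTH domain, an intronic CRE (chr15:80497103-80498715) had a difference of 3.56 ± 0.072, the fourth in order. It held 60 and 61 in UT, 268 and 242 after 30 min of IL-4, 351 and 348 after 4 h, and 13 and 4 and then 11 and 0 with LPS at those times. A second intronic Enthd1 CRE (chr15:80456754-80459063) reached 3.35 ± 0.059, with 162 and 202 in UT, 580 and 516 after 4 h of IL-4 and 11 and 20 after 4 h of LPS. In both, the IL-4, UT and LPS values did not overlap, but those at 4 h were used in the selection. The central sequence of the first held 2 STAT6 matches and that of the second none. The CRE 43.0 kb from Vrk1, a nuclear kinase gene, held 42 and 43 in UT, 725 and 630 after 4 h of IL-4 and 13 and 10 after 4 h of LPS (3.39 ± 0.064 in the inhibitor libraries).

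By the DMSO values used in the selection, the widest splits included a CRE near Msx3, a homeobox gene. The Msx3 CRE (chr7:140050121-140053128, 2.54 kb away) held 36 and 36 in UT, 738 and 706 after 4 h of IL-4 and 13 and 7 after 4 h of LPS. The IL-4, UT and LPS values did not overlap, and in the inhibitor libraries this CRE had a difference of 3.04 ± 0.064 (SE).

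Many of the CREs stood in groups. With CREs at most 50000 bp apart joined, the 887 formed 582 chains, of which 154 held 2 or more (459 CREs) and 34 held 4 or more (184 CREs), and 428 CREs stood alone. They had 587 different nearest genes, and 67 genes were nearest to 3 or more, covering 269 CREs. CREs of one chain are not independent replicates of the pattern.

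Klf4 was nearest to 10 CREs. They lay 231 to 554 kb from its start, 9 of them in a chain of 76.9 kb, with differences of 1.09 to 3.19 in the inhibitor libraries. Itgb3, which encodes the integrin beta 3 chain, had 6 CREs, 1 at its promoter and 5 in its introns, with differences of 1.63 to 3.08. Its promoter CRE held 150 and 135 in UT, 441 and 463 after 30 min of IL-4, 295 and 327 at 4 h, and 24 and 30 after 4 h of LPS. The 2 most distal intronic CREs of Itgb3 peaked at 30 min of IL-4 (225 and 226, 279 and 268) and were down to 76 and 91, and 106 and 95, at 4 h, so CREs of one gene differed in how long the gain lasted.

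Adipoq, the adiponectin gene, was nearest to 5 CREs, with differences of 2.46 to 3.13. The strongest lay 35.3 kb away (chr16:23180457-23183271) and held 707 and 708 in UT, 1272 and 1139 after 4 h of IL-4 and 70 and 44 after 4 h of LPS. Ptgs1 also had 5 (1.42 to 3.27) and Vrk1 6 (1.39 to 3.39), and at both the promoter was among them. The 6 CREs nearest to the Wnt effector gene Tcf7l2 all lay within introns of its neighbour Vti1a, with differences of 1.77 to 3.12. Of the 7 CREs near Gsdmc, a gasdermin gene, 1 lay below UT after 4 h of IL-4 in the inhibitor libraries, at -0.40, the lowest of the 887.

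Genes known to respond to IL-4 were nearest to 485 tested CREs, and 48 of these (9.9%), near 20 genes, were in the set, compared with 1.5% of all CREs. In the inhibitor libraries at 4 h, 168 of the 485 were higher with IL-4 than UT and 65 lower, and 105 were higher with LPS and 160 lower. Over all 59167 CREs tested these calls were 9.36%, 11.3%, 21.1% and 20.8%. The list was put together with results of these data known and is no independent evidence. Of its promoter CREs, 23 of 39 were higher with IL-4 and 5 were in the set.

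Members from that list besides Arg1, Mgl2, Irf4 and Klf4 included chemokine, surface receptor and transcription factor genes. Ccl24, encoding an eosinophil chemokine, had 3 CREs, and its promoter one held 62 and 51 in UT, 178 and 158 after 30 min of IL-4 and 23 and 16 after 30 min of LPS. Mrc1, the mannose receptor gene, had an intronic CRE that held 172 and 205 in UT, 452 and 456 after 30 min of IL-4 and 30 and 24 after 30 min of LPS. Retnla, encoding a secreted resistin-like protein, had a CRE 9.93 kb away that held 189 and 154 in UT, 696 and 652 after 4 h of IL-4 and 35 and 56 after 4 h of LPS, with 26.5% repeated words. In none of these did the IL-4, UT and LPS libraries overlap at the times given. The 4 h values of the Retnla CRE were used in the selection.

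Some genes had several CREs each, of which Batf3 was on that list and Runx1 on a list of macrophage identity genes. Batf3, a dendritic cell and macrophage AP-1 family gene, had 3 CREs 16.7 to 27.7 kb from its start, with inhibitor-library differences of 1.93 to 2.53. Runx1, a haematopoietic transcription factor gene, had 3 intronic CREs with 1.97 to 2.14, and all 3 held the STAT6 match. At Tfrc, the transferrin receptor gene, which was on none of the lists, 4 CREs were in the set and the gain was late. The Tfrc promoter CRE held 122 and 95 in UT, 93 and 103 after 30 min of IL-4 and 226 and 222 after 4 h, and its difference from LPS at 30 min was 0.42 ± 0.189 (SE, limma adjusted p 0.0603).

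The other lists held few members. Macrophage identity genes contributed 7 of 634 CREs (1.1%), lipid and sterol handling genes 4 of 207 (1.93%), lysosome and endocytosis genes 1 of 106 (0.943%), PI3K, RAS and G protein signalling genes 4 of 407 (0.983%) and LPS response genes 1 of 302 (0.331%). Of the 302 near LPS response genes, 240 were higher with LPS than UT at 4 h in the inhibitor libraries and 8 lower. The 1 member among them lay in an intron of Cd40, a costimulatory receptor gene, and held 175 and 171 in UT, 351 and 365 after 4 h of IL-4 and 67 and 54 after 4 h of LPS.

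The sequence at the centre of the CREs held the STAT6 match more often than that of most other sets. TTC and GAA 4 bases apart were found in the central 300 bases of 260 of the 887 (29.3%), compared with 9.22% of all CREs, 5.25% of the mirror set and 7.0% of the CREs that passed only the LPS threshold. CREs that passed only the IL-4 threshold held it in 24.3%. With promoters left out, the shares were 30.6% of the CREs and 10.1% of all. The spacing of 3 bases, bound by other STATs, was in 12.3% against 9.4%. A window may hold both, and both strands were read.

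Motifs of LPS-activated factors did not all lie on one side of their share over all CREs. The AP-1 match (TGA and TCA 1 base apart) was in 15.8% of the CREs, 20.2% of all and 26.3% of the mirror set. A pair of GAAA 2 bases apart, the interferon-stimulated response element, was in 3.49%, 5.14% and 9.58%, and a loose NF-kB match (GGG and CC 4 or 5 bases apart) was in 42.7%, 52.9% and 44.2%. A short IRF match (GAAAGT) was in 18.7%, 17.3% and 22.6%. Among macrophage lineage factors, PU.1 (GAGG followed by AAGT) was in 12.2% against 9.11%, C/EBP (TTGC and AA 2 bases apart) in 15.6% against 14.7%, and RUNX (TGTGGTT) in 12.6% against 9.86%. GC content of the windows was 47.0% in the CREs and 48.3% in all, and the shares were not adjusted for it.

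**Figure D4:**
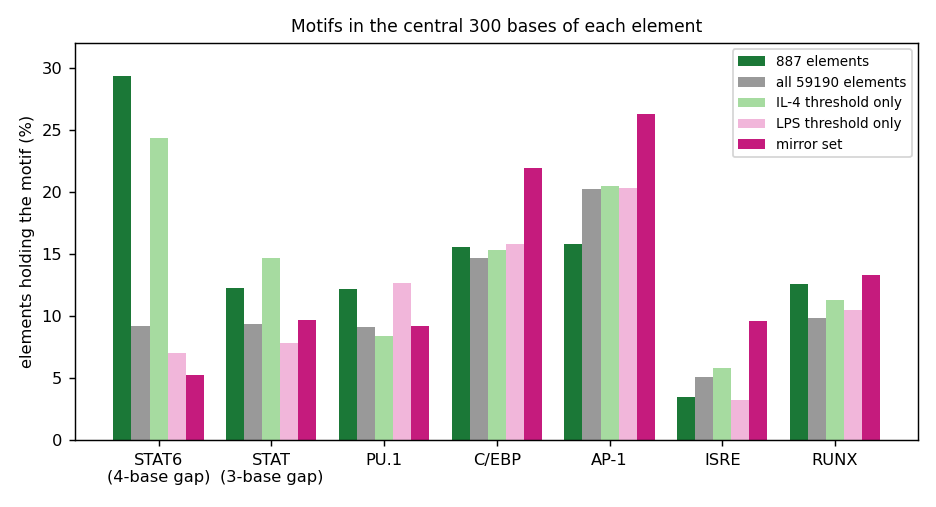
Share of CREs (vertical axis, %, from 0) whose central 300 bases hold each motif, for the 887 CREs, all 59190 CREs, those passing only one threshold and the mirror set. The STAT6 bar of the 887 CREs is 29.3% against 9.22% for all and 24.3% for the IL-4 threshold alone, while AP-1 is lowest in the 887 CREs at 15.8%.

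The share of CREs with the STAT6 match was highest where the IL-4 gain was largest and lowest where the LPS fall was largest. Ranked by IL-4 minus UT at 4 h in the inhibitor libraries and cut into 4 equal groups from the largest gain down, 36.2%, 32.1%, 25.8% and 23.2% of the CREs held it. Ranked by the LPS fall, largest first, the shares were 23.1%, 32.1%, 28.1% and 33.9%. The median IL-4 minus UT difference was 0.91 with the match and 0.80 without, and the median LPS minus UT difference was -0.74 and -0.79. These shares and medians are descriptions over CREs, many of which share a locus, and carry no test.

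The gain with IL-4 was present under each inhibitor, and the loss with LPS under most. The median IL-4 minus UT response over the 887 CREs, at the mean of 2 h and 4 h or at the 1 time with a library, was above 0 for 58 of 58 inhibitors, from 0.58 to 1.3 with a median of 0.90, and above the median over all CREs for each. The LPS minus UT response was below 0 for 56 of 57 inhibitors, from -1.45 to 0.27 with a median of -0.85, and below that of all CREs for each. XL413 gave no LPS value at those times. Inhibitors were used at different doses, each its own, so the values stand side by side and are not a comparison of potency.

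JAK kinases carry the IL-4 signal to STAT6, and 6 JAK inhibitors were in the collection. Their median IL-4 responses over the CREs were 0.585 for Filgotinib and 0.623 for BMS911543, the lowest of the 58 inhibitors. The responses were 0.951 for Ruxolitinib, 1.047 for Momelotinib, 1.108 for Pacritinib and 1.141 for Tofacitinib. Filgotinib and BMS911543 belonged to the same run of compounds, in which all 10 inhibitors lay between 0.58 and 0.89. Both were also the lowest of that run, followed by Apatinib at 0.691. The median over all CREs was 0.055 with Filgotinib and 0.086 with BMS911543. For some other inhibitors the 887 CREs stood closer to that background. X396, of the same run, had 0.784 over the 887 and 0.365 over all, and Silmitasertib had 0.740 and 0.342. With run as a covariate, limma called none of the 887 CREs lower under JAK inhibitors than under the other inhibitors, and 0.0% of all CREs. At an unadjusted p under 0.05, 2 were lower and 10 higher, beside 134 and 886 of all CREs. The median difference was -0.003 over the CREs, 0.024 without BMS911543 and 0.033 without Filgotinib, with a median standard error of 0.19 for a single CRE, and the lowest was -0.64 ± 0.25 near Wdr35.

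On the LPS side, JAK and MEK inhibitors gave no calls either. For JAK inhibitors 0 of the 887 were called higher by limma (0.0% of all CREs), with 22 higher and 3 lower at an unadjusted p under 0.05, beside 1835 and 217 of all CREs. The median was 0.148 (all CREs 0.115), with a median standard error of 0.27, and it was 0.002 after quantile normalisation and 0.040 without Pacritinib. The largest was a CRE near Ly86, which encodes the MD-1 partner of an LPS-binding receptor, at 1.14 ± 0.35. For the 3 MEK inhibitors 0 were called (0.0% of all CREs), with 0 higher and 46 lower at an unadjusted p under 0.05, beside 713 and 993 of all CREs. The median was -0.324 (all CREs -0.032), with a median standard error of 0.37, and it was -0.151 after quantile normalisation. The smallest p was at a CRE near Bcar3, with -0.88 ± 0.21 (limma, p 7.9e-05, adjusted p 1.0). Differences of the size of these errors could not have been detected.

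Over 2 h and 4 h, little or no LPS loss was found with PH797804 and Losmapimod, both p38 inhibitors, and Lenvatinib, a VEGF receptor inhibitor. These were singled out after their values were seen. The median LPS minus UT response over the CREs was 0.271 with PH797804, -0.035 with Losmapimod and -0.039 with Lenvatinib, while the median over all CREs was 0.654, 0.406 and 0.482. Omipalisib and Pacritinib came next at -0.115 and -0.144. The value of Losmapimod is that of 1 library at 4 h, and its medians at 30 min and 1 h were -0.54 and -0.78. At those earlier times PH797804 had -1.24 and -0.42, and Lenvatinib -0.59 and -0.87. The other p38 inhibitors, VX702 and Talmapimod, had -1.203 and -1.45, with -0.204 and -0.778 over all CREs. Inhibitors of p38 thus stood at both ends of the range, and the response over all CREs moved with that over the 887. The gap between the IL-4 and LPS responses was above 0 for 57 of 57 inhibitors, from 0.60 with PH797804 to 2.30 with GSK461364, a PLK1 inhibitor. Each value rests on 1 library per time for most inhibitors.

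**Figure D5:**
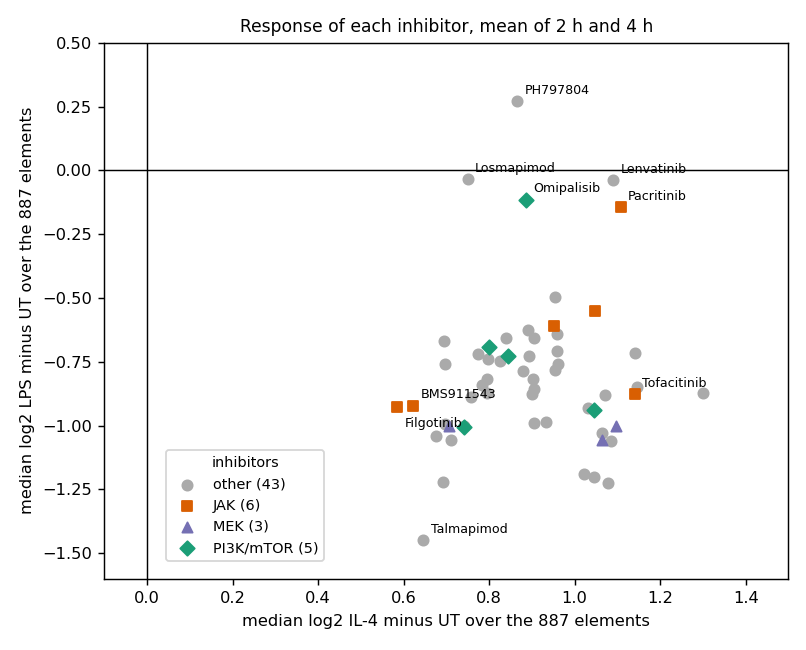
Median LPS minus UT response (vertical axis, log2) against median IL-4 minus UT response (horizontal axis, log2) over the 887 CREs, at the mean of 2 h and 4 h or the 1 time measured, with 1 point per inhibitor and JAK, MEK and PI3K/mTOR inhibitors marked. All points lie to the right of 0, and only PH797804, at 0.271, lies above 0 on the vertical axis.

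Precision differed between the sides. The SD of the log2 difference between the 2 DMSO libraries of a group, over the CREs, was 0.223 to 0.287 in the UT and IL-4 groups and 0.466 to 0.554 in the LPS groups, where the CREs hold few reads. The added 5 understates the fall of CREs that reach values near 0 with LPS, such as that of March10. The labels do not say that libraries of a group came from separate cultures, so p-values measure only the spread between these libraries.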

How the data were processed

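H3K27ac ChIP-seq values were analysed for 59190 CREs in 564 libraries of mouse BMDMs. The authors cut single-end reads to 51 bases, mapped them to mm10 with ShortStack, counted them around ATAC-seq summits and scaled libraries on CREs that did not vary. The submitters' notes also name Bowtie and SAMtools. The deposited values are normalised counts rounded by the authors to whole numbers and were treated as a score, with no count model. Sequencing depth is not given by scaled counts, whose totals were 4066894 to 12391409 per library, so no counting intervals were computed. Each of the 564 columns mapped to 1 library, and 0 columns were identical to another.

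The CREs and gene lists were chosen with earlier results of these data known. Values were taken as log2(value + 5), and CREs with a mean of at least 10 were tested with limma 3.58.1 (R 4.3.3; empirical Bayes with a mean-variance trend), Benjamini-Hochberg adjusted over all CREs tested. Calls needed an adjusted p of at most 0.05 and a log2 difference of at least 0.5, except between inhibitor classes, where the adjusted p alone was used. The DMSO fit used all 18 libraries. The inhibitor fit held compound as a factor, and the compounds stood in for replicates of the stimulus. Class comparisons used 1 response per compound (mean of 2 h and 4 h, or the 1 measured) with run, the block of compounds in column order, as a covariate. The fits were checked on simulated data. A ratio of exactly 1 to 2 counted as a fall of 1.

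Named CREs were the 10 with the largest inhibitor-library difference, the 10 with the largest DMSO difference, those nearest to listed genes or to genes with 3 or more, those beside a threshold, and the extremes of each comparison. Nearest starts and locations came from GENCODE basic protein-coding genes (mm10), with promoters within 1000 bp. Sequences were read with samtools 1.23.1 from RefSeq GRCm38.p6, and repeated words are 51-base words found elsewhere in that genome. Replicate numbers did not pair the libraries: over 36 pairs of DMSO groups, deviations of same-numbered libraries correlated at -0.0873 to 0.0664. Alternatives were other pseudocounts, filters, scalings, covariates, single runs and leaving out libraries. Some items met by the naming rule are not reported here.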

Additional observations from a re-analysis of the deposited data

How the results depend on the processing

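The number of CREs that met the rule depended on the pseudocount, with 410 at a pseudocount of 20 (all within the 887) and 1270 at 1. It was 975 after quantile normalisation (799 shared) and 679 after rescaling on the stronger CREs, a scaling that moved the median LPS minus UT difference of all CREs to 0.205 at 2 h. Without one DMSO library at a time it was 870 to 995, with 739 of the 887 kept without DMSO UT replicate 1. Of 324 alternative counts, these included, 321 stayed within 1.5 times the main count. Among the 324 are the JAK and MEK comparisons, which had 0 calls in the main fit and in each alternative and so count as unchanged. The figure says nothing of the medians over the CREs in those comparisons. Within run 1 alone, IL-4 was called higher than UT at 434 CREs at 30 min and 406 at 4 h against 653 and 710 over all runs. That run had 95 libraries and the lowest median contrast, 11.2, and the cause was not tested. Without one DMSO library, IL-4 against LPS gave 788 to 811 calls at 30 min and 840 to 857 at 1 h, and without one compound of the class the JAK and MEK comparisons stayed at 0. With a replicate block the DMSO comparisons gave 821 and 864 calls. The replicate numbers pair nothing in the labels. Calls at LPS against UT ranged from 353 to 556 at 30 min and from 530 to 705 at 4 h over the other alternatives. All 602 values of named CREs kept their direction and side of the threshold. A fit with no mean-variance trend, leaving out 100 inhibitor libraries with a contrast under 10, and leaving out CREs with over 10% repeated words were added after seeing the data.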
